A study of Mus musculus with 4 samples.

Results

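The histone genes of mouse oocytes are described here. They are the genes whose symbols are H1f, H2ac, H2bc, H3c or H4c followed by digits, together with the variant genes H2ax, H2aj, H2az1, H2az2, H3f3a and H3f3b. Of the 16861 genes listed in each library, 29 met this rule. These were 5 linker histone genes (H1f), 3 H2A genes (H2ac), 6 H2B genes (H2bc), 4 H3 genes (H3c), 5 H4 genes (H4c) and the 6 variant genes. The 18 genes of the H2ac, H2bc, H3c and H4c families are called the core histone genes below, and 17 of the 29 genes lie on chromosome 13.

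RNA was measured in 4 Smart-seq2 libraries of germinal vesicle (GV) oocytes, which are arrested before the first meiotic division, from 3-week-old female C57BL/6J mice. Both groups were freed of cumulus cells and stained with a Hoechst dye in medium with milrinone, which holds the oocyte in meiotic arrest, and were then sorted by eye under a microscope. No transgene or further treatment is stated, and oocytes that could not be classified were left out by the study. In NSN oocytes the chromatin did not surround the nucleolus, and in SN oocytes it formed a ring around it. There were 2 libraries per configuration, each from 15 pooled oocytes, and cDNA was primed with oligo(dT) and amplified in 18 PCR cycles. The comparison asks which histone mRNAs differed between the NSN and SN configurations.

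Replicative histone genes are expressed mainly in S phase, lack introns, and usually give mRNA that ends just after a stem-loop and has no poly(A) tail. The stem-loop is bound by stem-loop binding protein, and the end is cut with the help of the U7 small nuclear ribonucleoprotein. Variant histones are made also outside S phase, mostly from polyadenylated mRNA, and in the growing oocyte the linker histone H1f8 takes the place of most somatic H1. Since the libraries were primed at poly(A) tails, an mRNA without a tail is not captured in proportion to its amount. A low value of a replicative gene in these libraries therefore gives the level of the captured RNA and not of all its mRNA. The same holds for a difference of such a gene between NSN and SN, where more mRNA and more tailed mRNA cannot be told apart.

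The stem-loop was searched for as GG, any 2 bases, CTTTT, any 1 base, AG, any 2 bases and CC, on the strand of the gene, in the 100 bases after each annotated stop codon in GRCm39. It was present in 20 of the 29 histone genes, against 70 of 21665 protein-coding genes in all (0.323%). It was found in 16 of the 18 core histone genes, in H1f1, H1f2 and H1f3, and in H2ax, the only one of the 6 variant genes with this motif. The window of H3c8, H4c1, H1f0, H1f8 and the other 5 variant genes did not hold these letters. The motif began 25 to 47 bases after the stop codon, and its 16 bases occurred in 5 versions. The following 26-base stretches are shown because they hold each of the 5 versions and belong to the 2 most abundant genes with the motif (H2ax and H2ac1), to H1f1, which is described with H2ac1 below as higher in SN, to the most abundant H4 gene (H4c3), to the neighbour of H2ac1 (H2bc1), and to H4c14. The motif is in capitals, U in the RNA is written as T, and coordinates are those of the capitals.
H2ax, chr9:44246537-44246552, plus strand: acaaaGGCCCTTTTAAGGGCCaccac
H2ac1, chr13:24118874-24118889, plus strand: aaaaaGGCTCTTTTCAGAGCCacctt
H1f1, chr13:23948375-23948390, plus strand: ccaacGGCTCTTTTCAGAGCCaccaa
H4c3, chr13:23882072-23882087, minus strand: caaaaGGCCCTTTTCAGGGCCaccca
H2bc1, chr13:24117713-24117728, minus strand: ccaaaGGCTCTTTTAAGAGCCaccca
H4c14, chr3:96170255-96170270, minus strand: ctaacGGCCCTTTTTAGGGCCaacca
In all 20 genes with the motif, the first 6 of its 16 bases can pair with the last 6, and H2ac1 and H1f1 share the same 16 bases.

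The libraries held 17069772 to 17998361 read pairs, recovered from the deposited FPKM (read pairs scaled by gene length and library total). For a gene of 1 kb, 3 read pairs amount to 0.167 to 0.176 FPKM, a floor that covers counting error only because amplified pairs are not independent molecules. The 10 oocyte markers were all listed, at a summed FPKM of 28131 and 26524 in NSN and of 19296 and 18175 in SN, and 7 of them fell in SN. Of 16 granulosa and cumulus cell markers 10 were listed, at a summed FPKM of 9.62 and 14.0 in NSN and of 14.2 and 14.0 in SN. The highest of them was Cyp19a1, at 5.81 and 8.06 in NSN and 8.38 and 8.22 in SN. Those not listed were Amh, Amhr2, Foxl2, Tnfaip6, Ptx3 and Slc38a3. The 6 markers of dividing cells summed to 84.9 and 94.5 in NSN and to 87.2 and 85.9 in SN. Only 1 of them, Top2a, was called, as higher in SN, against 5.95% of all genes tested. The part of these differences in the histone results was not tested. Because FPKM depend on the library total, fewer molecules of one RNA and more of the others cannot be told apart, and nor can fewer oocytes and less RNA per oocyte.

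The captured RNA of the 29 histone genes was dominated by H1f8, H3f3b and H3f3a in both configurations. The 29 genes together took 1.2% to 1.33% of all read pairs. H1f8 alone made up 86.0% to 87.9% of the summed FPKM of the histone genes, and H1f8, H3f3a and H3f3b together made up 98.2% to 98.6%. The 18 core histone genes together took 485 and 575 read pairs in NSN and 604 and 651 in SN. These 18 genes had a median of the mean FPKM of 1.04, and 15 of them had a mean FPKM under 2 and fewer than 50 read pairs in every library. No histone gene was at 0 in any library.

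**Figure D1:**
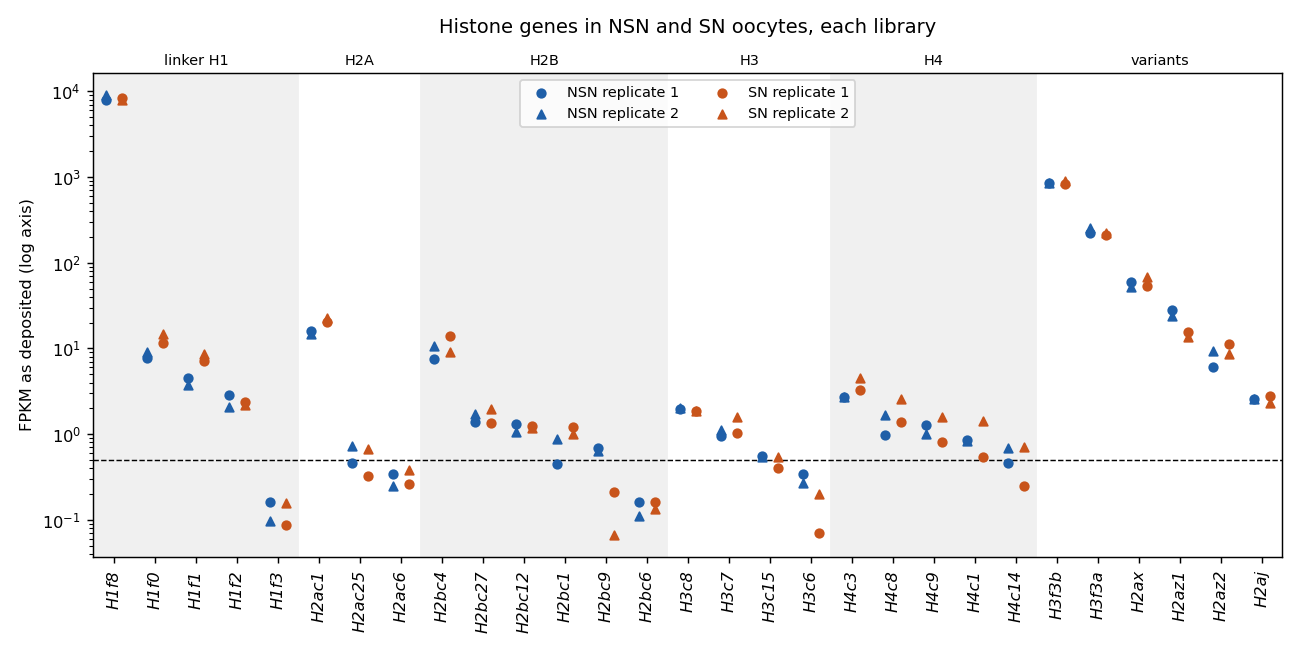
FPKM as deposited (log axis) of the 29 histone genes in each of the 4 libraries, grouped by family, with NSN in blue, SN in orange, replicate 1 as circles, replicate 2 as triangles and the limit of testing (mean FPKM of 0.5) as a dashed line. H1f8, H3f3b and H3f3a lie above 200 in every library, whereas 15 of the 18 core histone genes have a mean FPKM under 2.

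A mean FPKM of at least 0.5 over the 4 libraries was required for a test, and 24 of the 29 histone genes passed. H1f3, H2ac6, H2bc6, H2bc9 and H3c6 did not. A gene was called at a Benjamini-Hochberg adjusted p under 0.05 in limma, over the 11672 genes tested, and a fold change of at least 1.2. All p-values are two-sided. With 2 libraries per group they measure only the spread between these libraries, and that of each gene is moderated by that of other genes of similar level. The spread may be technical, since nothing says how the oocytes of a library were assigned to animals. The median gene had a log2 fold change (SN over NSN, on log2(FPKM + 0.5)) of 0.14, so values relative to it are also given for the genes called.

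Of the 24 histone genes tested, 2 rose in SN (H1f1 and H2ac1) and 1 fell (H2az1), which is 12.5%. Among all genes tested, 7.93% were called, 5.95% as higher and 1.98% as lower. The median log2 fold change of the 24 histone genes was 0.04, and 9 of them lay above the median gene. Both SN libraries lay above both NSN libraries in 5 of the 24 and below in 3, against 44.8% and 17.8% of all genes, and the groups did not overlap in 62.6% of all genes. A count of 3 in 24 is near that background. With the libraries scaled to a common median, H2az1 alone was called among the histone genes, where 2.2% of all genes were (0.668% as higher and 1.53% as lower), and the median of the 24 was -0.07.

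**Figure D2:**
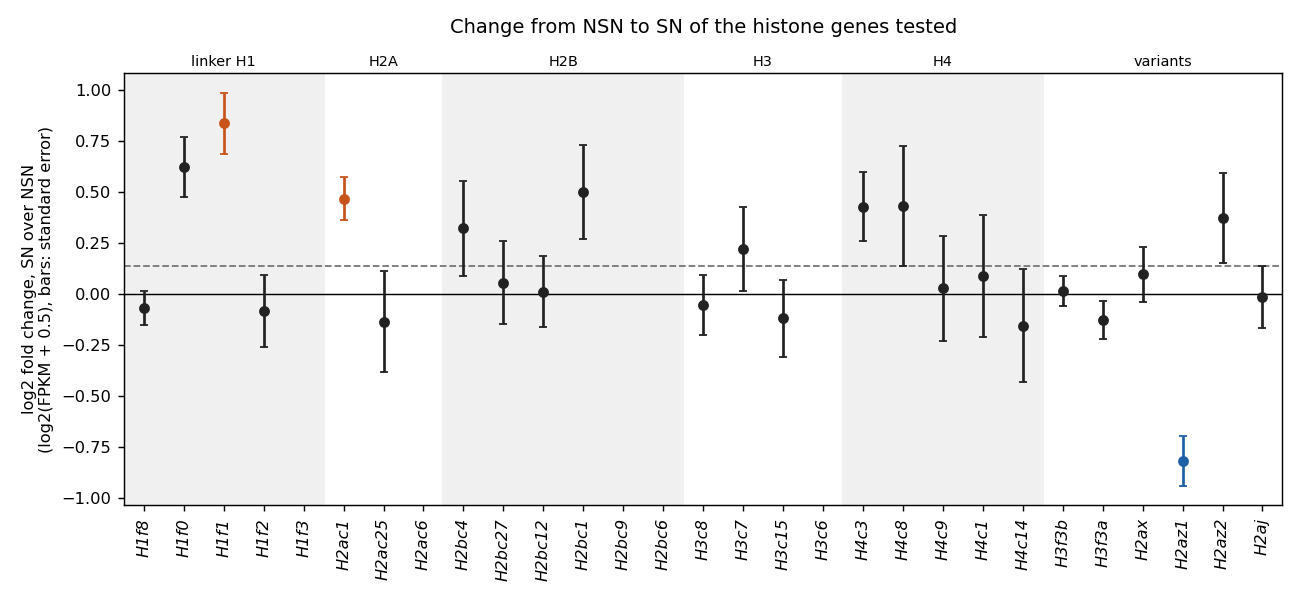
Log2 fold change of SN over NSN on log2(FPKM + 0.5) with its limma standard error (bars) for the 24 histone genes tested (2 libraries per configuration), and the median of all 11672 genes as a dashed line; genes called as higher are in orange, lower in blue, and gene names without a point were not tested. H1f1 and H2ac1 lie above the median gene and H2az1 lies below it at -0.82.

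Among the linker histones, H1f8, the oocyte form, had an FPKM of 7993 and 9085 in NSN and of 8337 and 7908 in SN. The groups overlapped, and H1f8 ranked 2 among all genes by mean FPKM. These values rest on 156120 to 182587 read pairs per library. The log2 fold change was -0.07 ± 0.08 (SE), with a 95% confidence interval of -0.27 to 0.13 (limma adjusted p = 0.60). H1f8 accounted for 99.7% to 99.8% of the FPKM of the linker histones.

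The somatic linker histones were present at far lower levels. H1f1, a replicative H1 whose mRNA carries the stem-loop shown above, had an FPKM of 4.57 and 3.77 in NSN and of 7.12 and 8.55 in SN. Both SN libraries were above both NSN libraries, with 59 and 50 read pairs in NSN against 90 and 114 in SN. H1f1 rose in SN by a log2 fold change of 0.84 ± 0.15 (SE), or 0.70 relative to the median gene (limma adjusted p = 0.038). The call was lost with the libraries scaled to a common median (adjusted p = 0.066) and when NSN replicate 1 (0.072), SN replicate 1 (0.063) or SN replicate 2 (0.11) was left out. It held in 4 of 11 other settings, over which the adjusted p ranged from 0.010 to 0.13.

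H1f0 encodes the replication-independent linker histone H1.0, and its mRNA had no stem-loop motif. Its FPKM was 7.66 and 9.02 in NSN and 11.6 and 14.7 in SN, so that the groups did not overlap. The log2 fold change of 0.62 ± 0.15 (SE) missed the threshold (limma adjusted p = 0.053). H1f0 was called when a mean FPKM of 5 or more was required (adjusted p = 0.021), by voom on the recovered read pairs (0.010) and without NSN replicate 2 (0.028). H1f2, another replicative H1, had an FPKM of 2.84 and 2.08 in NSN and of 2.37 and 2.17 in SN, with a log2 fold change of -0.08 (95% confidence interval -0.50 to 0.34). The ratio of H1f1 to H1f2 in FPKM was 1.61 and 1.81 in NSN and 3.01 and 3.93 in SN. It was not tested, and it carries the rise of H1f1 already given. H1f3 had 11 to 21 read pairs per library and was not tested.

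H2ac1, which encodes the germline H2A known as TH2A, was the most abundant core histone gene. Its FPKM was 15.9 and 14.7 in NSN and 20.1 and 22.7 in SN, from 108 and 103 against 134 and 159 read pairs. H2ac1 thereby held 14.1% and 14.2% of the H2A FPKM in NSN and 19.5% and 19.6% in SN. H2ac1 rose in SN by a log2 fold change of 0.47 ± 0.11 (SE), or 0.33 relative to the median gene, just within the threshold (limma adjusted p = 0.0487). This call was lost when any of the 4 libraries was left out (adjusted p = 0.071 to 0.18), with the libraries scaled to a common median (0.14) and with a pseudocount of 0.1 (0.052), and it held in 2 of 11 other settings (0.021 to 0.36 over the 11). The annotation of H2ac1 (chr13:24118445-24118834, plus strand, 1 exon) covers 390 bases and ends before the stem-loop, and 33.1% of it overlaps the antisense gene Gm54556. Read pairs were counted without strand, so the 2 cannot be told apart there.

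H2bc1, which encodes the partner H2B known as TH2B, lies head to head with H2ac1 on chromosome 13, with 305 bases between the annotated genes. It was chosen for description after its values were seen. H2bc1 had 3 and 6 read pairs in NSN and 8 and 7 in SN, with an FPKM of 0.449 and 0.872 against 1.22 and 1.0. Both SN libraries were above both NSN libraries, and the log2 fold change was 0.50 ± 0.23 (SE; limma adjusted p = 0.19). The FPKM of H2ac1 was 16.5 to 35.4 times that of H2bc1.

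The other H2A genes were near the limit of testing. H2ac25 had a mean FPKM of 0.546 and overlapping groups (log2 fold change -0.14 ± 0.25, SE, limma adjusted p = 0.74), and 71.3% of its exon overlaps Trim17 or the antisense gene Gm56433. H2ac6 had 11 to 17 read pairs per library.

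H2bc4 held 65.1% to 77.1% of the H2B FPKM. Its FPKM was 7.50 and 10.7 in NSN and 14.0 and 9.18 in SN, and the groups overlapped. The log2 fold change of 0.32 ± 0.23 (SE) did not pass the test (limma adjusted p = 0.38) and ranged from 0.031 to 0.61 with 1 library left out. H2bc27 and H2bc12 were at a mean FPKM of 1.61 and 1.2, and their log2 fold changes of 0.05 and 0.01 turned negative after median scaling (-0.06 and -0.10). Of H2bc12, 72.6% of all 75-base stretches also occur in other genes, mainly other H2B genes, so its reads may be split among copies. Below the limit of testing, H2bc9 had 20 and 19 read pairs in NSN and 6 and 2 in SN, and it too was singled out after its values were seen. H2bc6 had 5 to 7 read pairs in every library.

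Among the replicative H3 genes, which encode the canonical H3, none was called. H3c8 had an FPKM of 1.95 and 2.0 in NSN and of 1.88 and 1.89 in SN. Both SN values were lower than both NSN values, but the log2 fold change was only -0.06 ± 0.15 (SE, limma adjusted p = 0.82). H3c7 had 21 and 25 read pairs in NSN and 22 and 36 in SN, with a log2 fold change of 0.22 ± 0.21 (SE). H3c15 had 10, 10, 7 and 10 read pairs, in the order NSN then SN, and H3c6 had 5, 4, 1 and 3. The coding sequences of these 4 genes were 93.9% to 98.8% identical to each other over 408 bases, and 42.0% to 62.6% of their 75-base stretches also occur elsewhere, so their separate values are uncertain.

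None of the H4 genes was called. H4c3 was the most abundant of them, with an FPKM of 2.73 and 2.72 in NSN and of 3.29 and 4.47 in SN. The groups did not overlap, from 39 and 40 against 46 and 66 read pairs. The log2 fold change was 0.43 ± 0.17 (SE, limma adjusted p = 0.14). H4c8 had an FPKM of 0.978 and 1.66 in NSN and of 1.37 and 2.60 in SN, with overlapping groups, and 98.1% of it overlaps the antisense gene Gm11335. H4c9, H4c1 and H4c14 had mean FPKM of 1.17, 0.917 and 0.528, and their log2 fold changes of 0.03, 0.09 and -0.16 had standard errors of 0.26 to 0.30. That of H4c9 turned to -0.08 after median scaling.

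The H3.3 genes carried nearly all the captured H3 RNA of the genes in the rule. H3f3b and H3f3a, which encode the same variant H3.3 protein from separate genes, together held 99.6% to 99.7% of the H3 FPKM. H3f3c, which is outside the rule and shares 75-base stretches with H3f3a, was not counted in this share. Its FPKM was 12.6 and 15.1 in NSN and 15.8 and 17.3 in SN. H3f3b had an FPKM of 855 and 848 in NSN and of 823 and 900 in SN, so that the groups overlapped. Its log2 fold change was 0.02 ± 0.07 (SE), with a 95% confidence interval of -0.16 to 0.19 (limma adjusted p = 0.91), and it was -0.14 after median scaling. H3f3a had an FPKM of 220 and 256 in NSN and of 212 and 223 in SN, with a log2 fold change of -0.13 ± 0.09 (SE, 95% confidence interval -0.35 to 0.09, limma adjusted p = 0.38). The ratio of H3f3b to H3f3a was 3.88 and 3.31 in NSN and 3.88 and 4.04 in SN, with overlapping groups.

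Of the 2 genes of H2A.Z, the variant found at promoters and other regulatory regions, H2az1 fell in SN and H2az2 was not called, and the difference between them was not tested. H2az1 had an FPKM of 28.0 and 23.7 in NSN and of 15.4 and 13.5 in SN, from 522 and 454 against 281 and 260 read pairs. Both SN libraries were below both NSN libraries. H2az1 fell in SN by a log2 fold change of -0.82 ± 0.12 (SE), or -0.95 relative to the median gene (limma adjusted p = 0.036). It was called in 8 of 11 other settings, including median scaling (-0.97, adjusted p = 0.045), over which the adjusted p ranged from 0.0023 to 0.092, and the closest was the correction for gene length with a local fit of degree 2 (0.0494). That degree was adopted after a fit of degree 1 had been seen, in which H2az1 was not called (0.0501, and 0.088 with the replicate number as a block). The call was lost without NSN replicate 1 (log2 fold change -0.70, adjusted p = 0.075) and without SN replicate 2 (-0.73, adjusted p = 0.088). H2az1 lies at chr3:137570072-137572690 on the plus strand, 19.1% of its exons overlap the antisense gene Gm43403, and 26.8% of its 75-base stretches also occur in other genes.

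H2az2, the second H2A.Z gene, had an FPKM of 6.02 and 9.37 in NSN and of 11.3 and 8.61 in SN. The groups overlapped, and the log2 fold change of 0.37 ± 0.22 (SE) did not pass the test (limma adjusted p = 0.29). Without NSN replicate 1 it was 0.071, and without NSN replicate 2 it was 0.67 and passed (adjusted p = 0.0455). H2az1 made up 82.3% and 71.7% of the summed FPKM of the pair in NSN and 57.7% and 61.1% in SN. No test of this share was made. An exact permutation test of 2 libraries against 2 cannot give a two-sided p below 0.333.

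**Figure D3:**
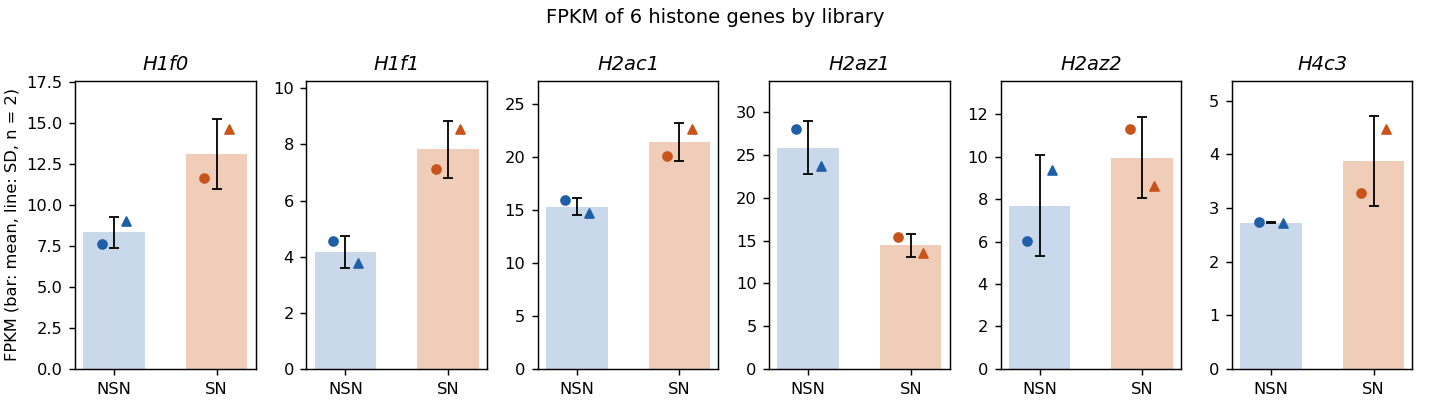
FPKM of 6 histone genes in each library, with the mean (bar), SD (line, n = 2), replicate 1 as circles and replicate 2 as triangles; the genes were chosen after their values were seen. The 2 SN libraries lie above both NSN libraries for H1f0, H1f1, H2ac1 and H4c3 and below both for H2az1, and the groups overlap for H2az2.

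H2ax encodes the variant that is phosphorylated at DNA breaks, and it was the most abundant H2A gene. Its FPKM was 59.7 and 52.2 in NSN and 52.9 and 67.4 in SN, the highest of any histone gene with a stem-loop motif. The groups overlapped, and the log2 fold change was 0.10 ± 0.13 (SE, limma adjusted p = 0.65), or -0.06 after median scaling. H2aj had an FPKM of 2.54 and 2.59 in NSN and of 2.78 and 2.31 in SN, with a log2 fold change of -0.01 ± 0.15 (SE). Of 16 other histone variants outside the rule that were looked for, Cenpa, Macroh2a1 and Macroh2a2 were listed and none was called, with mean FPKM of 29.6, 1.06 and 1.69. H3f3c was not among those looked for, and was not called either.

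Levels differed between genes with and without the stem-loop motif. The 20 genes with it had mean FPKM of 0.126 to 58.0 with a median of 1.17, and the 9 genes without it had 0.917 to 8331 with a median of 10.7. Most of the genes without it are variant or H1 genes, so motif and kind of gene cannot be told apart here. The core histone genes without it, H3c8 and H4c1, had mean FPKM of 1.93 and 0.917. The median over all core histone genes was 1.04. A poly(A) signal, taken as AATAAA in the last 50 bases of an annotated transcript, was present in 8 of the 9 genes without the stem-loop (all but H3c8) and in 6 of the 20 with it, against 75.7% of all protein-coding genes. The genes with both features were H1f2, H2ac25, H2bc4, H2bc27, H2bc6 and H4c14. In 15 of the 20, the annotation continues at least 100 bases beyond the stem-loop, whereas that of H2ac1, H2bc1 and H1f1 stops at or before it. That of H2bc12 and H4c8 continues 30 and 46 bases. A signal farther downstream could not have been found in these genes, which are counted as having none. These descriptions were made after the levels were known. Of the genes called, H1f1 and H2ac1 carry the motif and H2az1 does not, and the median log2 fold change was 0.10 over the 15 genes tested with the motif and -0.01 over the 9 without.

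**Figure D4:**
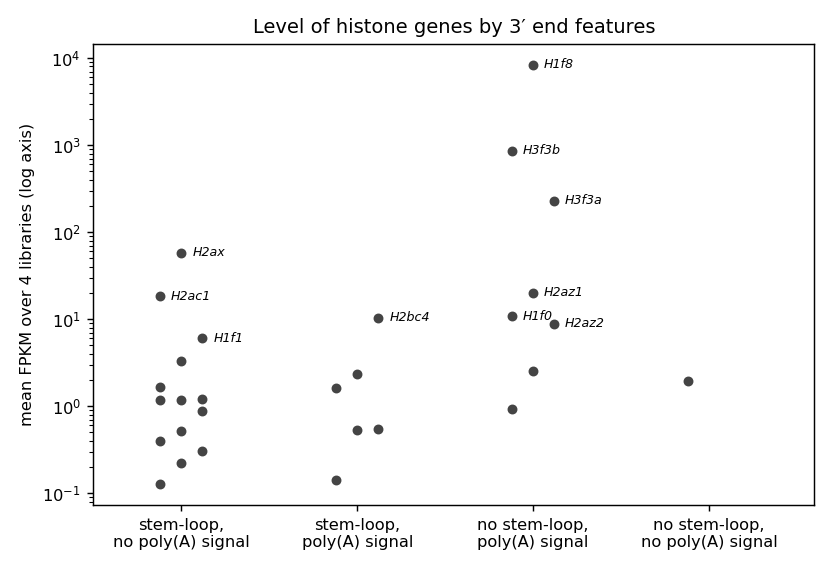
Mean FPKM over the 4 libraries (log axis) of each of the 29 histone genes, grouped by whether the stem-loop motif follows the stop codon and whether an annotated transcript ends in a poly(A) signal; each point is 1 gene, spread sideways for legibility, and genes with a mean of at least 5 are named. The 3 most abundant genes have a poly(A) signal and no stem-loop, and H2ax is the highest gene with a stem-loop.

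A list of 29 genes tied to the making, 3′ end cutting or decay of replicative histone mRNA was taken, of which 26 were tested. Some of its members, such as Upf1 and Fip1l1, also act on other mRNA. Of the 26 tested, 1 rose (Casp8ap2) and 1 fell (Zfp473) in SN, which is 7.69% of the 26 against the 7.93% of all genes called. The median log2 fold change of the 26 was 0.12 against 0.14 for all genes. Slbp, the stem-loop binding protein, had an FPKM of 1665 and 1553 in NSN and of 1704 and 1493 in SN, with overlapping groups and a log2 fold change of -0.01 ± 0.09 (SE, limma adjusted p = 0.94). Quantile normalization gave 0.11 for Slbp. Its level was thus above those of H3f3b and H3f3a in every library.

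Casp8ap2, a factor of the histone locus body that acts in the cutting of histone mRNA, had an FPKM of 18.5 and 23.3 in NSN and of 33.6 and 32.1 in SN. It rose by a log2 fold change of 0.65 ± 0.13 (SE), or 0.51 relative to the median gene (limma adjusted p = 0.042, and 0.063 after median scaling). Zfp473, a zinc finger protein of the same cutting step, had an FPKM of 6.06 and 5.71 in NSN and of 3.81 and 2.98 in SN. Its log2 fold change was -0.72 ± 0.15 (SE), or -0.86 relative to the median gene (limma adjusted p = 0.045, and 0.049 after median scaling). The groups did not overlap for either gene. Casp8ap2 was called in 4 of 11 other settings and Zfp473 in 6 of 10. Both calls were lost without NSN replicate 1 (adjusted p = 0.097 and 0.13), SN replicate 1 (0.097 and 0.067) or SN replicate 2 (0.097 and 0.14).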

How the data were processed

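Per the submitters' notes and methods, reads were trimmed with Trim Galore 0.6.10 and aligned to GRCm39 by HISAT2, and pairs of primary alignments on exons were counted by featureCounts regardless of strand. The authors then converted these counts to FPKM, the deposited unit, with their own script. DESeq2 was applied by the authors to counts that were not used here. Members and gene lists were chosen with earlier results of these data known. The total of each library was inferred from 5 mitochondrial tRNA genes, and whole read pairs from the FPKM of 16845 of 16861 genes (tolerance 0.01 pairs). The length behind the FPKM was that of an annotated transcript for 25 of the 29 histone genes. It was not for H2az1, H2bc4, H2bc6 and H3f3a, so their shares and ratios rest on a length that was not checked. For every gene the read pairs are the fewest that fit the FPKM, and those of these genes could be too low by a whole factor. The same holds for the genes outside the 29, whose lengths were not checked. The alternatives by voom and by gene length correction use these unchecked values.

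FPKM were transformed to log2(FPKM + 0.5), and 11672 genes whose mean FPKM reached 0.5 were tested. The log scale with a pseudocount understates the change of low genes. SN was compared with NSN in limma 3.58.1 under R 4.3.3 (eBayes with a variance trend). The genes named were the variant genes, H1f genes at or above that mean FPKM, the 3 most abundant genes of each core family, every member called, Slbp, and the called genes of the 3′ end processing list. Other genes were named after their values were seen. Sequences and positions came from GRCm39 with a later GENCODE release than the authors used, read with Biopython 1.88. Canonical transcripts were used for identities. Other values used Python 3.11.15, numpy 2.4.6 and pandas 2.3.3, and plots matplotlib 3.10.9. The procedure was tested on simulated data. Alternatives were other pseudocounts, filters and scalings, a gene length correction by local regression (span 0.3), the replicate number as a block, no variance trend, voom on recovered read pairs, and each library left out in turn. The length correction used a local fit of degree 1 at first, which was replaced by degree 2, the software default, after its result had been seen, and both are given. The protocol text of the labels gives 3 samples per group, but only 2 per group were provided, and all of these were analysed.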

Additional observations from a re-analysis of the deposited data

How the results depend on the processing

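Counts are given as all genes, histone genes and 3′ end processing genes, against 926, 3 and 2 in the analysis reported. They were 0, 0 and 0 with all listed genes tested (at an unadjusted p under 0.05, 4092, 6 and 6), and likewise without the variance trend (3449, 5 and 8) and with the length correction and replicate block (2809, 3 and 6). A mean FPKM of at least 5 gave 1496, 4 and 1, median scaling 257, 1 and 1, quantile normalization 230, 1 and 1, the replicate block 422, 1 and 0, the length correction of degree 2 139, 1 and 1, and voom 2292, 3 and 5. Among the 3 histone genes called by voom, H1f0 took the place of H2ac1. The length correction of degree 1, which was run first and listed as an alternative only after it had been seen and replaced by degree 2, gave 0, 0 and 0 with the replicate block and without it (unadjusted p under 0.05 without it, 3128, 3 and 6, and with it, 2769, 3 and 6). Leaving out 1 library gave 0 to 1680 genes, 0 to 4 histone genes and 0 to 2 list genes. Without NSN replicate 1 they were 0, 0 and 0 (2278, 4 and 5 at an unadjusted p under 0.05), without NSN replicate 2 1680, 4 and 2, without SN replicate 1 153, 1 and 0, and without SN replicate 2 12, 0 and 0. No label says whether equal replicate numbers pair the libraries, and the correlation of replicate differences (-0.07) cannot decide it.

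The histone median of 0.04 was 0.21 at a mean FPKM of at least 5, where fewer genes were tested, -0.071 after median scaling, and -0.094 (degree 2) and -0.090 (degree 1) with the length correction, with or without the replicate block. It was -0.032 to 0.19 with 1 library left out, the highest without SN replicate 1.

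None of the 3 histone genes called changed direction in any of these settings, but most of the settings could not have turned it. Their groups did not overlap, so leaving out 1 library could not change the direction. The filters, the replicate block and the variance trend do not alter the log2 fold change. H2az1 had an adjusted p of 0.0494 with the length correction of degree 2 and of 0.0501 at degree 1, so the choice of degree decided that call. Near 0, the direction of uncalled genes turned. Median scaling gave -0.058 for H2ax, -0.14 for H3f3b, -0.062 for H2bc27, -0.099 for H2bc12 and -0.079 for H4c9. Quantile normalization gave -0.054 for H2bc27, -0.084 for H2bc12, -0.057 for H4c9 and 0.11 for Slbp. The length correction, with or without the replicate block, gave -0.0066 for H2ax, -0.039 for H3f3b, -0.15 for H2bc27, -0.19 for H2bc12 and -0.16 for H4c9, and at degree 1 -0.0046, -0.036, -0.13, -0.18 and -0.15. With 1 library left out, the values ranged from -0.078 to 0.27 for H2ax, -0.049 to 0.080 for H3f3b, -0.17 to 0.27 for H2bc27, -0.11 to 0.13 for H2bc12, -0.32 to 0.37 for H4c9, -0.11 to 0.084 for Slbp, -0.27 to 0.10 for H1f2, -0.16 to 0.023 for H1f8, -0.39 to 0.12 for H2ac25, -0.13 to 0.10 for H2aj, and -0.0074 to 0.45 for H3c7. The cause of these differences was not tested.

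A library left out leaves a lone library that is assumed to vary like the others. Most core histone genes rest on fewer than 50 read pairs per library, and the limma standard errors of their log2 fold changes reached 0.30. These errors are moderated over all genes and can understate the counting error of low genes. By voom on the recovered read pairs they were 0.41 for H3c8, 0.52 for H2bc12 and 0.53 for H3c15. That of H2bc4 was slightly smaller by voom (0.22 against 0.23). H1f1 and H2ac1 had 0.25 and 0.19 by voom.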
